A study of Mus musculus with 9 samples.

Results

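Aminoacyl-tRNA synthetases are the enzymes that join each amino acid to its transfer RNA (tRNA), the step that lets the ribosome read the genetic code. The genes were chosen by name: a protein-coding symbol had to be an amino acid letter followed by "ars", with or without a closing a, b, 1 or 2, or had to be Eprs, Eprs1 or Tarsl2. This rule found 38 of the 54838 genes in the count tables, of which 21 were cytosolic and 17 mitochondrial. Symbols ending in 2 were taken as mitochondrial, except Tarsl2, and Gars and Kars, whose products serve both compartments, were kept with the cytosolic genes. The rule read no measured value, but the family was taken up with earlier results of these libraries known, so its counts are given as a description.

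Ear RNA of C57BL/6 mice aged 10 weeks was read by 3′ tag RNA-seq, which counts a short read near the 3′ end of each transcript. Wild-type mice were injected with a minicircle that encodes GFP, a fluorescent control protein, or the cytokine IL-23, and Mdl-1-/- mice, which lack the myeloid receptor MDL-1 encoded by Clec5a, were injected with the IL-23 minicircle. Each injection held 15 µg of DNA and was given hydrodynamically through the tail vein, and each of the 3 groups had 3 libraries. The labels give no Mdl-1-/- group with GFP, so a genotype difference that was there without IL-23 cannot be told apart from a difference in the response to it, and they do not say that the libraries of a group came from separate animals.

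In the cytosol, 8 of the synthetases (Dars, Eprs, Iars, Kars, Lars, Mars, Qars and Rars) are held together with scaffold proteins in the multisynthetase complex, and the others lie outside it. The mitochondrial enzymes are encoded in the nucleus by a separate set of genes, imported, and used to translate the few proteins of the mitochondrial genome. Many cytosolic synthetase genes are known targets of ATF4, the transcription factor of the integrated stress response, which acts with C/EBP proteins on a composite DNA element in their promoters, and growing cells need more of these enzymes.

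The libraries held 3776188 to 5605713 counts, and the 38 synthetase genes together made up 0.124% to 0.178% of them. Reads of the mitochondrial genome made up 12.6% to 15.1% of counts in the GFP group, 8.69% to 8.99% in wild-type IL-23 ears and 11.4% to 12.9% in Mdl-1-/- IL-23 ears. Clec5a gave 2, 7 and 10 counts with GFP, 17, 21 and 11 in wild-type IL-23 ears and 10, 13 and 5 in Mdl-1-/- IL-23 ears, and as the deleted part of the gene is not named in the sources used here, these 3′ tags do not check the genotype. Of the marker genes for skin and ear tissue, those of keratinocytes summed to 10369 to 13541 CPM (counts per 1000000 of the library's size, which TMM, the trimmed mean of M-values, set) with GFP, 17083 to 19695 in wild-type IL-23 ears and 23186 to 26619 in Mdl-1-/- IL-23 ears, and the 6 fibroblast markers to 716 to 1138, 393 to 867 and 228 to 774 CPM. The 6 keratinocyte markers did not move together: with IL-23 in wild-type mice Krt1, Krt10 and Krt14 rose, Krt15 fell (log2 -3.53) and the other two passed no test, and in Mdl-1-/- against wild-type IL-23 ears Krt10 was higher and Krt14 lower.

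The DNA letters around the start of these genes are shown first, because the element bound by C/EBP and ATF4 can be read in them. RefSeq promoter windows on GRCm38.p6, each 300 bases long with 250 before the annotated start and 50 after it, were matched for 27 of the 38 members, 13 cytosolic and 14 mitochondrial. The core TGATGNAA was searched on both strands (N is any base), and capitals mark it. In Aars, Gars, Iars and Tars it lies on the strand opposite to the printed one, so the capitals there show its reverse complement. It lay in the windows of 5 of the 13 cytosolic genes (Aars, Gars, Iars, Tars and Yars) and of 0 of the 14 mitochondrial genes, against 3.97% of all 32851 promoter windows and 2.36% of the 12148 windows of genes tested here. Farsa, which rose with IL-23 and has no such core in its window, is printed beside them.
Aars, chr8:111033592-111033891 forward strand: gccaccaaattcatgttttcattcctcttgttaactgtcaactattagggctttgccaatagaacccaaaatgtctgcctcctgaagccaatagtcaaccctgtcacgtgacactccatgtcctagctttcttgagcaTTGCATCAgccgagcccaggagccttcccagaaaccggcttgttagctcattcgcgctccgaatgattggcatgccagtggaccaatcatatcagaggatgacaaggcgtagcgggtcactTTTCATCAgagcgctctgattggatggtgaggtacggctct
Gars, chr6:55037751-55038050 forward strand: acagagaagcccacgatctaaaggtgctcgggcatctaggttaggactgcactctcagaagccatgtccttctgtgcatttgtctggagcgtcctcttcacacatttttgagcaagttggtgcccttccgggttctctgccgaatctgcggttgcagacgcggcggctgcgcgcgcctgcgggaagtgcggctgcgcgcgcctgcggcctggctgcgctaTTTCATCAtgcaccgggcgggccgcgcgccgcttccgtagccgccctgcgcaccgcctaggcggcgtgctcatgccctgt
Iars, chr13:49681880-49682179 forward strand: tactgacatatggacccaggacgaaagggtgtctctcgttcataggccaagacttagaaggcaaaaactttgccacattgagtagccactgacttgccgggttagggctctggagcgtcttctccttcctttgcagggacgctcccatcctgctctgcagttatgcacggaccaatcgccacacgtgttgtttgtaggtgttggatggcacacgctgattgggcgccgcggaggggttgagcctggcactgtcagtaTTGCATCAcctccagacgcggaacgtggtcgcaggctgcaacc
Yars, chr4:129189653-129189952 forward strand: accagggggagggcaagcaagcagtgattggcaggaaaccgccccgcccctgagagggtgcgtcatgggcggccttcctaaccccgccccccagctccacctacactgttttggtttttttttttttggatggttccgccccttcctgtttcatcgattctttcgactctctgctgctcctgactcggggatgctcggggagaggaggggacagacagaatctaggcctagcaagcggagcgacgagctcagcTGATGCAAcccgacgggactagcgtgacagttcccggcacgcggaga
Tars, chr15:11399609-11399908 reverse strand: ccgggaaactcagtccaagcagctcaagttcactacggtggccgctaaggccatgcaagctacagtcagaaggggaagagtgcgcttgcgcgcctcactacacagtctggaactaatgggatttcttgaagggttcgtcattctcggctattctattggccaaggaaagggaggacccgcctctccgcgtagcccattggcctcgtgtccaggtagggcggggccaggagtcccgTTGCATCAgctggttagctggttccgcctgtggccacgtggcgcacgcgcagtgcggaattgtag
Farsa, chr8:84856736-84857035 forward strand: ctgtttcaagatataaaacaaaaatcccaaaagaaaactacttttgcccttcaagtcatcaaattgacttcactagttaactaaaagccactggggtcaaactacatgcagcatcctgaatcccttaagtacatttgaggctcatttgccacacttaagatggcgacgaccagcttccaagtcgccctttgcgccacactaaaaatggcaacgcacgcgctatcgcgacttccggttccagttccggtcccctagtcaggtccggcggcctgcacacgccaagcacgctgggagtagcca

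Counting the annotated start as 0, the first printed base in capitals lay at -112 and at 9 in Aars, at -30 in Gars, at 7 in Iars, at 3 in Yars and at -15 in Tars. Where the core is on the opposite strand, this is the last base of TGATGNAA. The window of Aars was the one among these members with 2 matches. The E-box CACGTG, which overlaps none of these cores, was found in 4 of the 13 cytosolic windows (Aars, Farsb, Iars and Tars) and in 1 of the 14 mitochondrial windows (Ears2). It was in 7.15% of all windows and 9.89% of those of genes tested here. The core of the interferon-stimulated response element was found in Qars alone, against 3.44% of all windows and 3.05% of those of tested genes. The STAT element TTCNNNGAA was found in Aars, Kars and Nars2, against 8.3% and 6.82%. A match is a string of letters and does not show that a protein was bound there, and no match says only that these letters were not in this window.

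**Figure D1:**
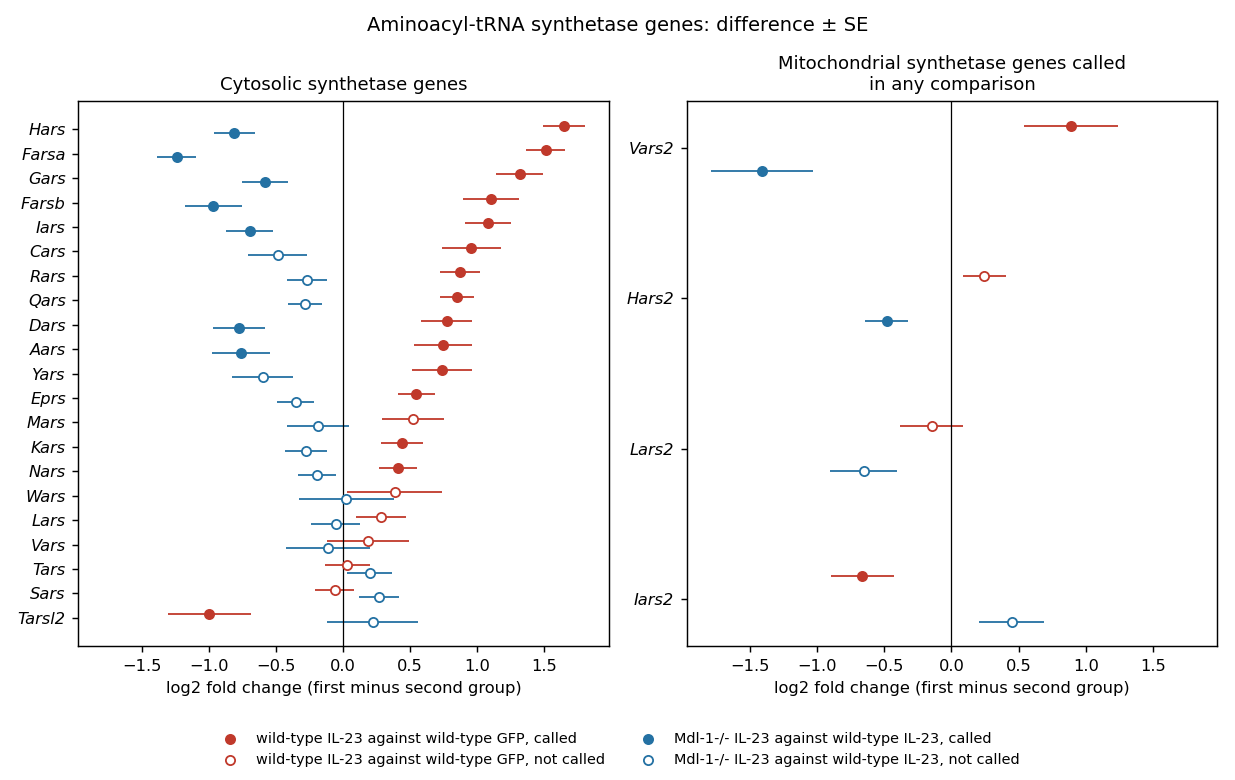
Log2 fold change ± SE (horizontal axis) of each of the 21 cytosolic synthetase genes (left) and of the 4 mitochondrial ones called in any of the 3 comparisons (right) for IL-23 against GFP in wild type (red) and for the 2 genotypes under IL-23, Mdl-1-/- minus wild type (blue), with filled points for adjusted p under 0.05. Most cytosolic genes lie to the right of 0 in red and to the left in blue, from 1.65 for Hars to -0.995 for Tarsl2 in red, while on the right the red point of Vars2 is filled above 0 and that of Iars2 below it.

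With IL-23 in wild-type mice, 14 of the 21 cytosolic synthetase genes rose and 1 fell, while 1 of the 17 mitochondrial genes rose and 1 fell. Over all 13807 genes tested, 44.7% were called, 22.9% rising and 21.7% falling. Here and below a gene rose or fell where the edgeR quasi-likelihood test gave a Benjamini-Hochberg adjusted p under 0.05 over all genes tested. The median log2 fold change was 0.74 over the cytosolic genes, 0.10 over the mitochondrial genes and -0.04 over all genes tested. Upper-quartile scaling, under which the median of all genes dropped by 0.15 on the log2 scale, gave a cytosolic median of 0.58 and turned the mitochondrial median to -0.05. In such tissue samples fewer cells of a type and less RNA per cell cannot be told apart.

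Hars, which charges histidine tRNA, had the largest fold change of the family with IL-23. Its level was 38.3, 48.8 and 43.5 CPM in the GFP libraries, 129, 123 and 157 CPM in wild-type IL-23 ears and 74.7, 87.6 and 71.2 CPM in Mdl-1-/- IL-23 ears. The 3 groups did not overlap, with GFP lowest and wild-type IL-23 highest. The means were 43.5 ± 5.28, 137 ± 18.3 and 77.8 ± 8.65 CPM (SD, n = 3), and with IL-23 in wild-type mice Hars rose 3.13-fold (log2 1.65, SE 0.15, edgeR adjusted p = 1.55e-06).

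Both subunits of the cytosolic phenylalanyl-tRNA synthetase rose. Farsa, the alpha subunit, was at 101, 121 and 86.0 CPM with GFP, at 273, 289.65 and 314 CPM in wild-type IL-23 ears and at 116, 132 and 124 CPM in Mdl-1-/- IL-23 ears. All IL-23 wild-type libraries lay above all others, and the GFP and Mdl-1-/- IL-23 libraries overlapped. Farsa rose 2.85-fold with IL-23 (log2 1.51, SE 0.15, adjusted p = 2.04e-06). Farsb, the beta subunit, was at 38.6, 47.6 and 35.1 CPM with GFP, at 107, 79.9 and 73.1 CPM in wild-type IL-23 ears and at 39.8, 59.9 and 33.5 CPM in Mdl-1-/- IL-23 ears, with the same order and overlap as Farsa. It rose 2.15-fold (log2 1.10, SE 0.21, adjusted p = 0.000638). Sgpp2, which covers the 3′ end of Farsb on the other strand, fell in the same comparison (log2 -1.10, adjusted p = 0.00492).

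Gars, which charges glycine tRNA in both compartments, was at 37.6, 54.5 and 36.5 CPM with GFP, at 122, 99.8 and 97.5 CPM in wild-type IL-23 ears and at 73.6, 77.8 and 62.1 CPM in Mdl-1-/- IL-23 ears. Like Hars, it kept the 3 groups apart, with Mdl-1-/- IL-23 in between. It rose 2.49-fold with IL-23 (log2 1.32, SE 0.17, adjusted p = 2.73e-05). Cars, the cysteine enzyme, was at 12.4, 14.3 and 10.8 CPM with GFP, at 24.5, 20.1 and 28.4 CPM in wild-type IL-23 ears and at 12.5, 19.4 and 19.9 CPM in Mdl-1-/- IL-23 ears. Its IL-23 wild-type libraries were all above the others, and it rose 1.94-fold (log2 0.96, SE 0.22, adjusted p = 0.00254). Of the other cytosolic enzymes outside the complex, Aars (alanine) rose by log2 0.75 (adjusted p = 0.0102), Yars (tyrosine) by 0.74 (adjusted p = 0.0135) and Nars (asparagine) by 0.41 (adjusted p = 0.0266). Single libraries decided these smaller changes: Aars was not called without GFP library 3 (adjusted p = 0.0669), Yars without GFP library 1 (0.0633), and Nars without GFP library 3 (0.117) or IL-23 wild-type library 1 (0.0774) or 3 (0.0752). Upper-quartile scaling also ended the call of Nars (adjusted p = 0.139).

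Of the 8 enzymes of the multisynthetase complex, 6 rose with IL-23 and 0 fell, and of the 13 cytosolic genes outside it, 8 rose and 1 fell. Iars, the isoleucine enzyme of the complex, was at 46.6, 38.9 and 43.5 CPM with GFP, at 74.5, 82.5 and 117 CPM in wild-type IL-23 ears and at 49.0, 59.9 and 59.7 CPM in Mdl-1-/- IL-23 ears, with the 3 groups apart. It rose 2.11-fold (log2 1.08, SE 0.17, adjusted p = 0.000149), the largest change in the complex. Rars (arginine) rose by log2 0.87 (adjusted p = 0.000271), Qars (glutamine) by 0.85 (adjusted p = 8.71e-05) and Dars (aspartate) by 0.77 (adjusted p = 0.0043). Eprs, a fused enzyme for glutamate and proline, rose by log2 0.54 (adjusted p = 0.00483), and Kars (lysine) by 0.44 (adjusted p = 0.0316). The call of Kars was lost when any of the 6 wild-type libraries was left out (adjusted p of 0.0554 to 0.0730), under upper-quartile scaling (0.140) and with no count filter (0.0867). The other members of the complex, Lars (leucine) and Mars (methionine), did not pass the test, at log2 0.28 (adjusted p = 0.221) and 0.52 (adjusted p = 0.0781).

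**Figure D2:**
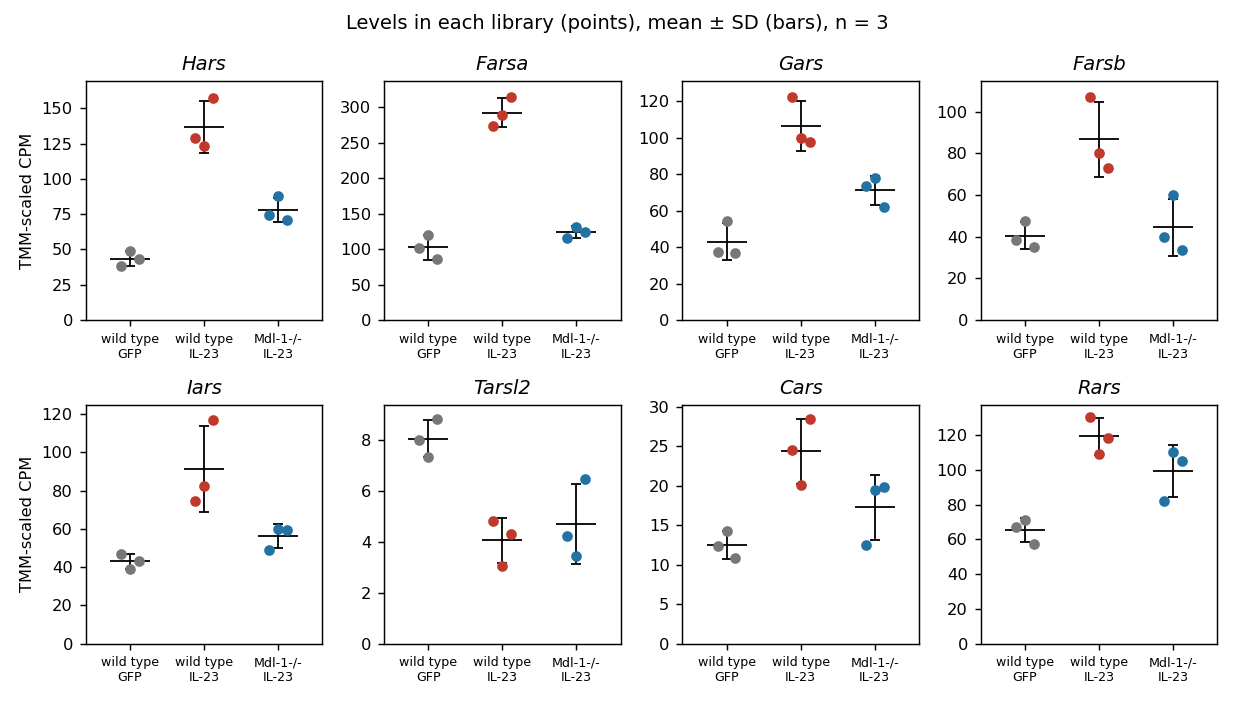
Level in TMM-scaled CPM (vertical axis, from 0) of the 8 cytosolic genes called with the largest absolute log2 fold change for wild-type IL-23 against wild-type GFP, in each library (points) with the group mean and SD (bars, n = 3). In 7 of the panels the IL-23 wild-type libraries lie above all GFP libraries, and in Tarsl2 they lie below them.

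The cytosolic gene that fell was Tarsl2, a second threonine enzyme. It was at 8.01, 7.35 and 8.82 CPM with GFP, at 4.81, 3.07 and 4.30 CPM in wild-type IL-23 ears and at 4.25, 3.43 and 6.47 CPM in Mdl-1-/- IL-23 ears. The GFP libraries were above all others, and Tarsl2 fell by 0.995 on the log2 scale in wild-type mice (1.99-fold lower, SE 0.31, adjusted p = 0.0167). The main threonine gene, Tars, was at 109.8, 69.4 and 97.0 CPM with GFP, at 105, 81.9 and 95.9 CPM in wild-type IL-23 ears and at 102, 118 and 104 CPM in Mdl-1-/- IL-23 ears. The groups overlapped throughout, and no call was made (log2 0.03, SE 0.17, adjusted p = 0.894). Tarsl2 shares its 3′ end with Tm2d3 on the same strand, so its counts are uncertain, and it was not called without GFP library 3 (adjusted p = 0.0607) or without IL-23 wild-type library 2 (adjusted p = 0.0842). The enzymes for serine (Sars, log2 -0.06), tryptophan (Wars, 0.39) and valine (Vars, 0.19) did not pass the test either, with adjusted p of 0.757, 0.392 and 0.642.

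Of the genes with the C/EBP-ATF core in the printed windows, Aars, Gars, Iars and Yars rose and Tars did not pass the test, so 4 of 5 rose. Of the 8 cytosolic genes with a window but no core, 6 rose, 1 fell and 1 did not pass the test. Over all genes tested, 22.9% rose and 21.7% fell. Between the genotypes under IL-23, 3 of the 5 and 3 of the 8 were lower in Mdl-1-/- ears, against 10.1% of all genes tested. The difference between these small sets was not tested.

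Among the mitochondrial genes, Vars2 (valine) rose and Iars2 (isoleucine) fell. Vars2 was at 3.65, 4.41 and 3.87 CPM with GFP, at 7.33, 10.1 and 4.30 CPM in wild-type IL-23 ears and at 2.91, 3.66 and 1.68 CPM in Mdl-1-/- IL-23 ears. The lowest IL-23 wild-type library lay within the GFP range, and Vars2 rose by log2 0.89 (1.85-fold, SE 0.35) with an adjusted p of 0.0476, just inside the threshold. That call was lost in 11 of the 17 other analyses in which Vars2 was tested. Iars2 was at 15.7, 14.9 and 17.2 CPM with GFP, at 10.5, 9.63 and 9.92 CPM in wild-type IL-23 ears and at 9.39, 16.9 and 14.9 CPM in Mdl-1-/- IL-23 ears. Its wild-type groups did not overlap, and it fell by 0.66 on the log2 scale (SE 0.23, adjusted p = 0.0293). Leaving out GFP library 1 or 3 or any IL-23 wild-type library ended that call (adjusted p of 0.0536 to 0.101). Iars2 shares its 3′ end with Rab3gap2 on the other strand, whose counts were 41, 41 and 36 with GFP and 13, 5 and 6 in wild-type IL-23 ears, and as the strand setting is not given in the sources used here, reads of these genes cannot be told apart.

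The genes nearest to the threshold on its other side were Sars2 (mitochondrial serine), with log2 1.32, SE 0.58 and an adjusted p of 0.0729, and Mars at 0.0781. Sars2 gave 2, 10 and 9 counts with GFP, 12, 20 and 5 in wild-type IL-23 ears and 5, 11 and 3 in Mdl-1-/- IL-23 ears, so few reads stand behind its value. The mitochondrial genes were read less deeply than the cytosolic ones, with a median of 25.7 counts a library against 260.1, and the median SE of their log2 fold changes was 0.34 against 0.17. A mitochondrial change as small as that of Kars or Nars was therefore harder to detect at this depth.

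In each of the 3 IL-23 wild-type libraries the level of 15 cytosolic genes lay above every GFP library and that of 1 lay below, where 27.3% and 27.4% of all genes tested kept the groups apart in these directions. Of the mitochondrial genes, 1 lay above and 1 below. Summed over the 21 cytosolic genes, the level was 939.8 to 1043 CPM with GFP, 1620.1 to 1826 CPM in wild-type IL-23 ears and 1155 to 1363 CPM in Mdl-1-/- IL-23 ears, and the 3 groups did not overlap. The 17 mitochondrial genes summed to 134.9 to 147, 144 to 155 and 117 to 134.2 CPM, so the Mdl-1-/- libraries lay narrowly below all others. Without TMM scaling, as a share of the library total, the cytosolic sums were 1084 to 1193, 1452 to 1645 and 1156 to 1269.6 CPM, with the GFP and Mdl-1-/- IL-23 ranges overlapping. Unscaled, the mitochondrial sums were 156 to 172 CPM with GFP and 120.0 to 139 CPM in wild-type IL-23 ears, so the direction of that change depends on the scaling. In Mdl-1-/- IL-23 ears the unscaled mitochondrial sums were 114 to 134 CPM, which overlapped the wild-type IL-23 range.

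**Figure D3:**
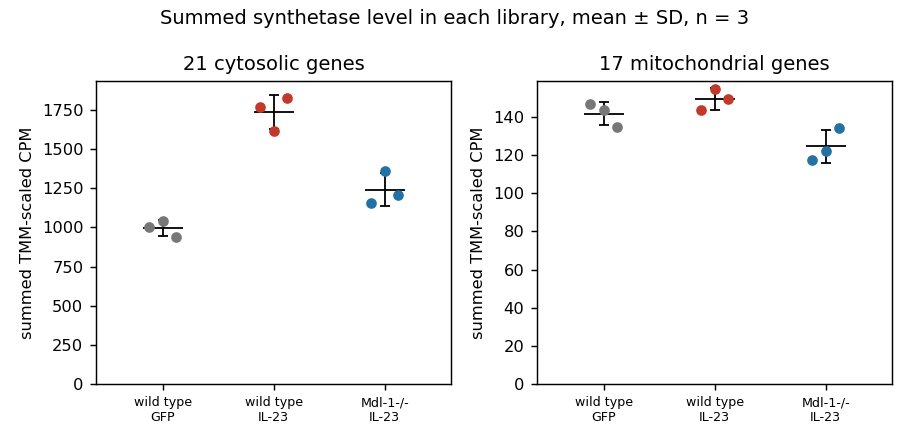
Summed level in TMM-scaled CPM (vertical axis, from 0) of the 21 cytosolic (left) and 17 mitochondrial (right) synthetase genes in each library (points), with mean and SD (bars, n = 3). The cytosolic sums of the 3 groups do not overlap, at 939.8 to 1043, 1620.1 to 1826 and 1155 to 1363 CPM. The mitochondrial sums are 134.9 to 147, 144 to 155 and 117 to 134.2 CPM, with the Mdl-1-/- libraries narrowly below all others.

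For 18 pairs of a cytosolic and a mitochondrial gene for the same amino acid, the log2 fold change with IL-23 was greater for the cytosolic gene in 15. The exceptions were Sars with Sars2, Tars with Tars2, and Vars with Vars2. The largest difference between partners was that of Iars and Iars2, which moved in opposite directions (log2 1.08 and -0.66). These pairs share Eprs and Fars2 and were not tested as a set.

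Hars and Hars2 are divergent neighbours on chromosome 18, with start sites 197 bases apart in GENCODE M21 on GRCm38. Their annotated 5′ ends overlap by 198 bases on opposite strands. Hars2 (mitochondrial histidine) was at 40.2, 45.0 and 34.2 CPM with GFP, at 49.7, 47.5 and 44.0 CPM in wild-type IL-23 ears and at 33.1, 30.6 and 37.6 CPM in Mdl-1-/- IL-23 ears. Its wild-type groups overlapped, and the change with IL-23 was log2 0.25 (SE 0.16, adjusted p = 0.213), beside 1.65 for Hars. The ratio of Hars to Hars2 counts, which no scaling changes, was 0.952 to 1.27 with GFP, 2.59 to 3.58 in wild-type IL-23 ears and 1.89 to 2.86 in Mdl-1-/- IL-23 ears. The GFP range lay below both others, which overlapped each other.

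**Figure D4:**
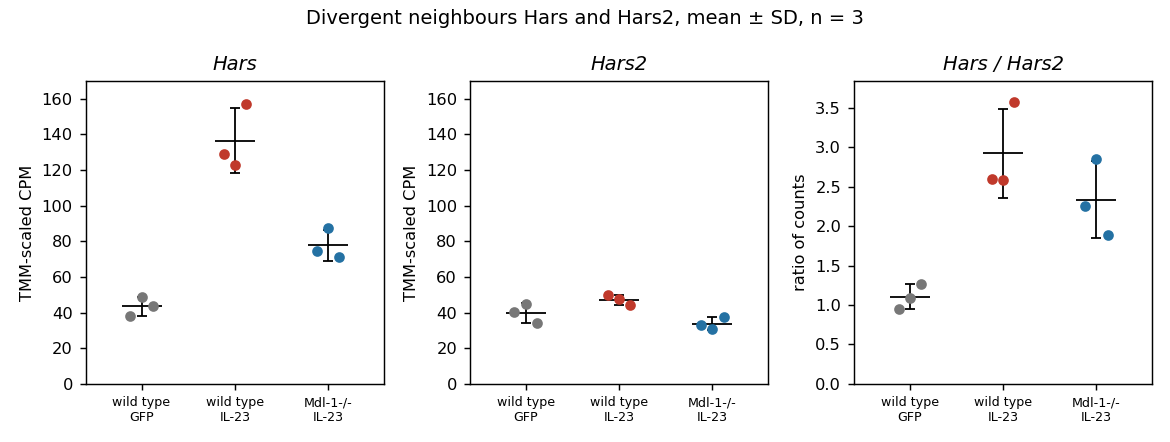
Levels of the divergent neighbours Hars and Hars2 in TMM-scaled CPM (left and middle, same vertical scale from 0) and the ratio of their counts (right) in each library (points), with mean and SD (bars, n = 3). Hars differs between all groups. Hars2 lies between 30.6 and 49.7 CPM, and its Mdl-1-/- libraries lie below its wild-type IL-23 libraries. The ratio is 0.952 to 1.27 with GFP and 1.89 to 3.58 in the IL-23 groups.

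Under IL-23, Mdl-1-/- ears had lower levels of 7 of the 21 cytosolic and 2 of the 17 mitochondrial synthetase genes than wild-type ears, and none of the 38 was higher. Of all genes tested, 17.7% were called, 10.1% lower and 7.58% higher. DESeq2 and limma voom also called 0 members higher. The median log2 fold change was -0.28 over the cytosolic genes, -0.09 over the mitochondrial genes and 0.00 over all genes tested. Of the genes that were lower, Aars, Dars, Farsa, Farsb, Gars, Hars, Iars and Vars2 had risen with IL-23 in wild-type mice; both comparisons use the same IL-23 wild-type libraries, so a high value there moves them in opposite directions.

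Vars2 differed most, at 2.66-fold lower (log2 -1.41, SE 0.38, adjusted p = 0.0190), with all Mdl-1-/- libraries below all IL-23 wild-type libraries in the values given above. Farsa was 2.36-fold lower (log2 -1.24, SE 0.15, adjusted p = 0.000671) and Farsb 1.95-fold lower (log2 -0.97, SE 0.21, adjusted p = 0.00721). Hars was 1.75-fold lower (log2 -0.81, SE 0.15, adjusted p = 0.00314). In each of these the groups did not overlap.

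Dars, the aspartate enzyme of the complex, was at 53.8, 49.4 and 41.5 CPM with GFP, at 59.1, 88.5 and 99.9 CPM in wild-type IL-23 ears and at 42.3, 43.7 and 58.2 CPM in Mdl-1-/- IL-23 ears. The lowest IL-23 wild-type library was just above the highest Mdl-1-/- library, and Dars was 1.71-fold lower in Mdl-1-/- ears (log2 -0.78, SE 0.19, adjusted p = 0.0140). Aars was at 17.2, 21.3 and 12.2 CPM with GFP, at 26.1, 28.5 and 30.4 CPM in wild-type IL-23 ears and at 13.9, 20.1 and 16.1 CPM in Mdl-1-/- IL-23 ears. Its Mdl-1-/- libraries lay within the GFP range and below all IL-23 wild-type libraries, a 1.69-fold difference (log2 -0.76, SE 0.22, adjusted p = 0.0262). Iars was 1.62-fold lower (log2 -0.70, SE 0.17, adjusted p = 0.0133) and Gars 1.5-fold lower (log2 -0.58, SE 0.17, adjusted p = 0.0283).

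The wild-type IL-23 and Mdl-1-/- IL-23 groups did not overlap in 12 cytosolic and 6 mitochondrial genes that were lower in Mdl-1-/- ears and in 1 cytosolic gene that was higher, Sars, where 19.2% and 17.2% of all genes tested did so. By structural class, 6 of the 11 cytosolic class II genes and 1 of the 9 class I genes were lower, against 10.1% of all genes tested. Eprs, which joins both classes, was in neither count, and Farsa and Farsb encode subunits of 1 enzyme. The difference between the classes was not tested. The mitochondrial genes Hars2 (log2 -0.48, SE 0.16, adjusted p = 0.0480) and Lars2 (leucine, log2 -0.65, SE 0.25, adjusted p = 0.0794) lay just inside and outside the threshold, as did Yars (log2 -0.60, adjusted p = 0.0748) on its outer side. The count of 7 cytosolic genes rested on single libraries. It was 4 without IL-23 wild-type library 2 and 4 without library 3, and 3 without Mdl-1-/- library 1, while the calls over all genes went from 2439 to 1128, 1300 and 1166. Leaving out 1 library ended the call of Hars2 in 8 of the 9 such analyses (adjusted p of 0.0629 to 0.145), and over all 18 alternatives it was lost in 14. Such omissions also ended the calls of Aars in 4 of the 9, of Gars in 4, of Dars in 3, of Vars2 in 3 and of Iars in 2. Farsa, Farsb and Hars were lower in each of the 18 other analyses run.

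Compared with wild-type GFP ears, Mdl-1-/- IL-23 ears had higher levels of 4 cytosolic synthetase genes and lower levels of 1 mitochondrial gene, where 17.1% of all genes tested were called, 10.2% higher and 6.93% lower. The genes that were higher were Hars by 1.79-fold (log2 0.84, SE 0.15, adjusted p = 0.00160), Gars by 1.66-fold (log2 0.73, SE 0.17, adjusted p = 0.00854), Rars by 1.52-fold (log2 0.60, SE 0.15, adjusted p = 0.0115) and Qars by 1.48-fold (log2 0.57, SE 0.13, adjusted p = 0.00647). This comparison changes genotype and injected gene at once. The median log2 fold change was 0.23 over the cytosolic genes, -0.22 over the mitochondrial genes and -0.02 over all genes tested. In 6 cytosolic genes the groups were apart with Mdl-1-/- IL-23 higher, and in 1 cytosolic and 1 mitochondrial gene with it lower, where 17.9% of all genes tested did so in each direction.

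Rars and Qars, both of the complex, were higher than in wild-type GFP ears in both IL-23 groups, and no Mdl-1-/- GFP group was analysed here. Rars was at 67.2, 71.1 and 57.5 CPM with GFP, at 130.2, 109 and 118 CPM in wild-type IL-23 ears and at 82.3, 110.2 and 105 CPM in Mdl-1-/- IL-23 ears. Qars was at 62.8, 71.6 and 66.2 CPM with GFP, at 117, 117 and 128 CPM in wild-type IL-23 ears and at 100.2, 97.4 and 99.4 CPM in Mdl-1-/- IL-23 ears. In both genes the GFP libraries lay below all others. Between the IL-23 groups neither passed the test, with log2 -0.27 (adjusted p = 0.229) for Rars and -0.28 (adjusted p = 0.131) for Qars.

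Lars2, the mitochondrial leucine enzyme, was at 11.1, 14.5 and 12.7 CPM with GFP, at 9.85, 13.1 and 11.6 CPM in wild-type IL-23 ears and at 6.93, 5.95 and 9.11 CPM in Mdl-1-/- IL-23 ears. The Mdl-1-/- libraries were below all others, and against GFP Lars2 was 1.74-fold lower (log2 -0.80, SE 0.24, adjusted p = 0.0304). Without GFP library 3 the count of cytosolic genes that were higher was 2, and the calls over all genes went from 2359 to 1340. Gars was then at an adjusted p of 0.0547 and Rars at 0.0671, and Rars was also lost without Mdl-1-/- library 2 (0.0578). Lars2 was not called without GFP library 2 or 3 or without Mdl-1-/- library 1 or 2 (adjusted p of 0.0789 to 0.143). Hars and Qars were higher in each of the 18 other analyses.

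Over the 3 comparisons, 19 of the 38 members passed no test: Lars, Mars, Sars, Tars, Vars and Wars in the cytosol, and 13 mitochondrial genes, which are given as a count. A p that misses the threshold does not show that their levels were alike. In the authors' deposited tables, which use a false discovery rate of 0.05, 12 cytosolic members were higher and 1 lower with IL-23 in wild-type mice, and 0 mitochondrial members passed, where 9.69% of 54838 genes did. In the same deposited tables, 5 cytosolic members and 1 mitochondrial member differed between the genotypes under IL-23 (3.03% of all), and 4 cytosolic members were higher in Mdl-1-/- IL-23 than in GFP ears (3.39%). All of these were also called here, with the same direction once the sign of the genotype table, which is written as wild type minus mutant, is turned. The deposited values come from the same libraries, so this match is not an independent check. The deposited shares are over all 54838 genes, including those with too few counts to be tested here. They are therefore not the shares to set the members against. Over the 13807 genes tested here, 44.7%, 17.7% and 17.1% were called in these comparisons.

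**Figure D5:**
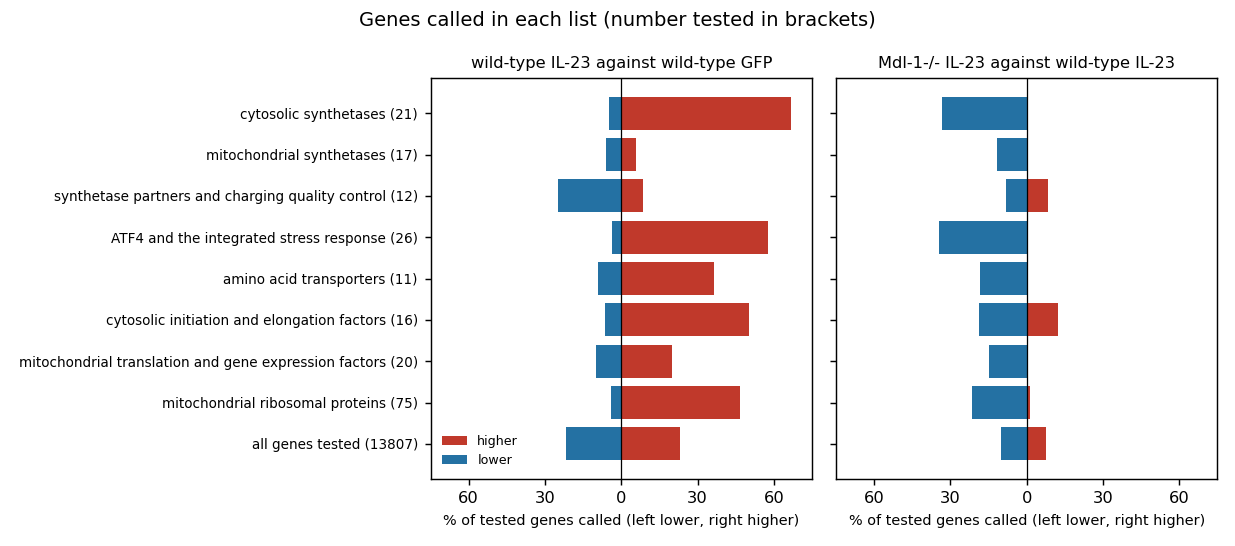
Share of tested genes called higher (right of 0) or lower (left of 0), in percent, in each gene list, for IL-23 against GFP in wild type (left) and Mdl-1-/- minus wild type, both under IL-23 (right), with the number tested in brackets. The cytosolic synthetases and the ATF4 list have 66.7% and 57.7% higher with IL-23, against 22.9% of all genes tested. The ribosome biogenesis, interferon response and proliferation lists are not drawn, and the proliferation list also has 66.7% higher.

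Other genes of the same processes were read for comparison. Over all genes tested, 22.9% rose and 21.7% fell with IL-23 in wild-type mice. Between the genotypes under IL-23, 7.58% were higher and 10.1% lower in Mdl-1-/- ears. Here too both comparisons use the same IL-23 wild-type libraries. Of 26 tested genes of ATF4 and the integrated stress response, 15 rose and 1 fell with IL-23 in wild-type mice (median log2 0.94), and 9 were lower in Mdl-1-/- than in wild-type IL-23 ears (median -0.47). Atf4 itself was at 153 ± 35.0 CPM with GFP, 505 ± 70.6 CPM in wild-type IL-23 ears and 216 ± 33.2 CPM in Mdl-1-/- IL-23 ears (SD, n = 3). It rose by log2 1.73 with IL-23 (SE 0.17, adjusted p = 2.75e-06) and was lower in Mdl-1-/- than in wild-type IL-23 ears (log2 -1.22, SE 0.17, adjusted p = 0.00107). Slc7a11, the cystine transporter, rose most in the list (log2 5.09, adjusted p = 2.40e-06). Of 11 amino acid transporters, 4 rose and 1 fell with IL-23, and 2 were lower in Mdl-1-/- ears.

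Of 12 tested scaffold and quality control partners of the synthetases, 1 rose and 3 fell with IL-23 (median log2 -0.26). These are 8.33% and 25%, against 22.9% and 21.7% of all genes tested. In Mdl-1-/- ears 1 was higher and 1 lower (8.33% each, against 7.58% and 10.1%). Aimp1, a scaffold of the complex, stood at log2 0.15 (adjusted p = 0.352). Sepsecs, which makes selenocysteinyl-tRNA, fell by 1.39 on the log2 scale (adjusted p = 0.00204) and was higher in Mdl-1-/- ears by log2 1.24 (adjusted p = 0.0158). Qrsl1, a subunit of the enzyme that makes glutaminyl-tRNA in mitochondria, rose by log2 0.63 (adjusted p = 0.0253).

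Of 16 cytosolic initiation and elongation factors, 8 rose and 1 fell with IL-23 (median log2 0.49), and 2 were higher and 3 lower in Mdl-1-/- ears. Of 75 mitochondrial ribosomal proteins, 35 rose and 3 fell (median 0.46), and 1 was higher and 16 lower in Mdl-1-/- ears. Of 20 mitochondrial translation and gene expression factors, 4 rose and 2 fell (median -0.03), and 3 were lower in Mdl-1-/- ears. These are 20%, 10% and 15%, against 22.9%, 21.7% and 10.1% of all genes tested. The 3 lower genes were Lrpprc (log2 -1.24), Elac2 (-0.92) and Polrmt (-1.40), which handle mitochondrial RNA. Each had risen with IL-23 in wild-type mice, a comparison that uses the same IL-23 wild-type libraries. Of 13 ribosome biogenesis genes, 5 rose with IL-23 (38.5%) and 1 was lower in Mdl-1-/- ears (7.69%, against 10.1% of all genes tested). Of 16 interferon response genes, 5 rose with IL-23 (31.2%) and 1 was higher in Mdl-1-/- ears (6.25%, against 7.58% of all genes tested). Of 15 proliferation genes, 10 rose with IL-23 (66.7%, the same share as in the cytosolic synthetases). In Mdl-1-/- ears 7 were lower (46.7%, against 33.3% of the cytosolic synthetases and 34.6% of the ATF4 list).

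Some markers of other cells also differed between groups. All 6 neutrophil markers rose with IL-23 in wild-type mice. They summed to 225 to 354 CPM with GFP, 34909 to 74252 CPM in wild-type IL-23 ears and 6665 to 25958 CPM in Mdl-1-/- IL-23 ears. The log2 fold changes of these markers with IL-23 in wild-type mice ran from 1.33 to 7.65 (median 3.54). The sum therefore does not stand for each marker alike and is not a measure of neutrophil number. Between the IL-23 groups, 2 of these 6 were lower in Mdl-1-/- ears. All 5 tested adipocyte markers fell, from 204 to 422 CPM with GFP to 45.0 to 85.6 CPM in wild-type IL-23 ears. The adipocyte sum was 57.4 to 84.3 CPM in Mdl-1-/- IL-23 ears, and 0 of the 5 were called between the IL-23 groups. Of 6 B and plasma cell markers, 2 were at 0 in every library and none passed the filter. The part of cell makeup, proliferation and the share of mitochondrial reads in the synthetase levels was not tested.

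Over the 9 libraries, the genes whose log2 level was most like the mean of the cytosolic synthetases were H13 (Pearson r = 0.994), Ddx3x (0.991), Bysl (0.990), Mcm5 (0.989) and Snu13 (0.988). Most like the mean of the mitochondrial synthetases were Rfx1 (0.953), Mtfr1l (0.937), 1810030O07Rik (0.926), Slc35d1 (0.919) and Naxe (0.918). These values are a description, since the libraries share their 3 groups and the genes were picked for their r among all genes tested.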

How the data were processed

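The authors' deposited tables hold raw counts of 3′ tag reads for each gene in 9 libraries (3 groups of 3). The authors' own comparison tables give log2 fold changes and, with them, p-values as the authors computed them. STAR 2.7.0a, featureCounts, edgeR and the build GRCh38.p6 are named, per the submitters' processing notes. That build is human and the gene identifiers are murine, so the build of the alignment is uncertain. For annotation release, strand and multiply matching reads, the settings were not given in the sources used here. Counts of members whose 3′ ends another gene covers (Aars, Cars2, Fars2, Farsb, Iars2, Mars, Tarsl2, Vars2 and Yars) are uncertain.

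The tables were merged (0 values disagreed between them), and symbols came from GENCODE M21 by identifier. The chi-square between replicates was at least 4.60 per gene, beyond sampling noise. As separate animals are not stated, a p-value here reflects only the spread among these libraries.

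The edgeR 4.0.16 package (R 4.3.3) was applied to the counts. After filterByExpr (minimum count 10, minimum total 15), 13807 genes were left, among them all 38 members. After TMM scaling, 1 model with 3 group means (6 residual degrees of freedom, robust dispersions) was tested by the two-sided quasi-likelihood F-test, with Benjamini-Hochberg adjustment over all genes tested and calls at 0.05. Standard errors were derived from F. Counts of 0 allow at most 0.535 CPM in the deepest library and 0.794 CPM in the shallowest (3 counts, counting error only). The procedure was also run on simulated data in which few genes were changed. With IL-23 in wild-type mice 44.7% of genes were called, so that run does not check the scaling. Alternatives were other scalings, DESeq2 1.42.0, limma voom (limma 3.58.1), other filters, dispersions without the robust option, a replicate block, fits of 2 groups only, and each library left out.

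Members, gene lists and markers were chosen with earlier results of these data known. Full values are given for the called members with the 8 largest absolute log2 fold changes per comparison and for those next to the threshold. Of other lists, at most the 3 called genes with the largest change and the first gene are named.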

Additional observations from a re-analysis of the deposited data

How the results depend on the processing

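Of 18 alternatives, 9 left out a library each. No called member changed sign in any of them, while 8, 11 and 13 members without a call did in the wild-type IL-23 against GFP, Mdl-1-/- against wild-type IL-23, and Mdl-1-/- IL-23 against GFP comparisons. The calls kept in every alternative numbered 10 of 17, 3 of 9 and 2 of 5 in that order. Of mitochondrial genes, 0 rose with IL-23 under upper-quartile scaling, DESeq2, limma voom, no count filter, a minimum count of 30, no robust dispersions and the replicate block, as the call of Vars2 was lost or, at the minimum of 30, could not be made as the gene was not tested. The mitochondrial genes lower in Mdl-1-/- than in wild-type IL-23 ears numbered 1 under upper-quartile scaling, DESeq2, limma voom, no count filter, a minimum count of 30, the replicate block and the fit of 2 groups only, and the call of Hars2 had adjusted p of 0.0384 to 0.145 over all alternatives.

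With libraries left out in turn, 11 to 14 cytosolic genes rose and 0 to 1 fell with IL-23 in wild-type mice, 0 to 1 mitochondrial genes rose and 0 to 1 fell, and 4622 to 6352 genes were called in all. Between the genotypes under IL-23, 3 to 7 cytosolic and 0 to 2 mitochondrial genes were lower, with 1128 to 2802 calls in all. Against GFP, 2 to 5 cytosolic genes were higher and 0 to 1 mitochondrial genes lower in Mdl-1-/- IL-23 ears, with 1340 to 2580 calls in all. Calls over all genes between the genotypes also fell to 1363 without Mdl-1-/- library 3, and against GFP to 1365 without Mdl-1-/- library 2.

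Single libraries ended these calls between the genotypes: Aars without IL-23 wild-type library 2 (adjusted p = 0.0865) or 3 (0.0813) or without Mdl-1-/- library 1 (0.106) or 3 (0.0839), Gars without IL-23 wild-type library 1 (0.0907) or 2 (0.0718) or without Mdl-1-/- library 1 (0.0673) or 3 (0.125), Dars without IL-23 wild-type library 2 (0.0660) or 3 (0.0649) or without Mdl-1-/- library 1 (0.0609), Iars without IL-23 wild-type library 3 (0.0726) or without Mdl-1-/- library 1 (0.0630), Vars2 without IL-23 wild-type library 2 (0.122) or without Mdl-1-/- library 1 (0.0523) or 3 (0.0795), and Hars2 without any library but GFP library 2 (0.0629 to 0.145). The cause was not tested.

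Upper-quartile scaling moved the share of calls that were higher from 51.3% to 38.9% with IL-23 in wild-type mice, from 42.9% to 53.2% between the genotypes and from 59.4% to 43.7% against GFP. Libraries with the same number did not deviate together (2 of 9 pairs correlated over 0.1, range -0.0863 to 0.230), so the numbers were not taken as pairing, and with a replicate block 6257, 2800 and 2682 genes were called in the 3 comparisons, against 6169, 2439 and 2359. Counts of a median of 25.7 reads a library limit what can be seen of the mitochondrial genes.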
